A study of Mus musculus with 27 samples.

Results

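The mouse Cyp2a and Cyp2b genes encode cytochrome P450 enzymes, and the 7 genes described here were Cyp2a4, Cyp2a5, Cyp2a12, Cyp2a22, Cyp2b9, Cyp2b10 and Cyp2b13. They were chosen by name, as the rows of the deposited count table whose Ensembl identifiers carry these symbols, and they were 7 of 55414 genes in the table and 7 of the 14114 genes abundant enough to be tested. RNA was sequenced from whole liver of 27 female Balb/c mice aged 8 weeks, in 8 groups. The 4 groups without CCl4 received oil and were control (n = 4, with PBS into the tail vein), 4MU (n = 3), siLuc-LNP (n = 3) and siHAS2-LNP (n = 3). The 4 other groups received intraperitoneal CCl4, a hepatotoxin that scars the liver, for 2 weeks, either alone (CCl4, n = 2) or with the same treatments: CCl4 + 4MU (n = 4), CCl4 + siLuc-LNP (n = 4) and CCl4 + siHAS2-LNP (n = 4). 4MU is 4-methylumbelliferone, an inhibitor of hyaluronan synthesis, given by gavage at 600 mg/kg a day. siHAS2-LNP is a lipid nanoparticle with siRNA against hyaluronan synthase 2, and siLuc-LNP carries siRNA against luciferase, which mice lack, so that it serves as the particle control. Both were injected at 1 mg/kg first and at 0.5 mg/kg later.

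CYP2 enzymes sit in the endoplasmic reticulum, mostly of hepatocytes around the central vein, where they oxidise drugs, toxins and steroids. Cyp2b10 is the classic target of CAR (gene Nr1i3), the nuclear receptor through which phenobarbital acts. Cyp2a4, Cyp2b9 and Cyp2b13 are known as genes expressed more in female than in male mouse liver, a difference set by growth hormone. Cyp2a5 is the coumarin and nicotine hydroxylase of the mouse, and Cyp2a12 encodes a steroid hydroxylase.

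All 7 genes lie in 1 cluster on chromosome 7 (GRCm39, GENCODE vM39), each with 9 exons. From one end to the other they run Cyp2b10 (chr7:25597045-25626049), Cyp2b13 (chr7:25760922-25795622), Cyp2b9 (chr7:25872835-25910086), Cyp2a4 (chr7:26006594-26014513), Cyp2a5 (chr7:26534730-26542973), Cyp2a22 (chr7:26631056-26638809) and Cyp2a12 (chr7:26728506-26736800). Cyp2a22 is on the minus strand and the others are on the plus strand. They are close copies of each other. The coding sequences of Cyp2a4 and Cyp2a5 differed at 23 of 1482 aligned bases (98.4% identity), those of Cyp2a12 and Cyp2a22 at 45 of 1476 (97%), and those of Cyp2b9 and Cyp2b13 at 107 of 1473 (92.7%). Cyp2b10 shared 87.8% with Cyp2b9. Reads that mapped to several places were not counted, so the share of a gene that is unique bears on its count. Of the 85-base windows inside exons, 62.9% were unique in the genome for Cyp2a5, against 84.3% for Cyp2b13, 85.7% for Cyp2a4, 90.1% for Cyp2a12, 91.2% for Cyp2a22, 94.3% for Cyp2b9 and 99.8% for Cyp2b10.

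The copies are alike in front of the genes too. The sequences below are upstream bases from the RefSeq promoter table (GRCm38.p6), placed on GRCm39 by exact match, written 5′ to 3′ on the strand of the gene and ending before the annotated transcript. They are shown because the genes of each pair moved by different amounts. Capitals mark the aligned bases that differ from the named copy, and bases opposite a gap are in lower case. The first lines compare Cyp2a4 (chr7:26006367-26006582) with Cyp2a5 (chr7:26534514-26534729).
Cyp2a4: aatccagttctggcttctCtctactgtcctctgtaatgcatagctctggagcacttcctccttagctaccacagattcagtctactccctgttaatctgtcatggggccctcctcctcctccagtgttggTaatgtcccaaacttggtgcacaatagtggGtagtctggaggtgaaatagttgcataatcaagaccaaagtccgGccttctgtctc
Cyp2a5: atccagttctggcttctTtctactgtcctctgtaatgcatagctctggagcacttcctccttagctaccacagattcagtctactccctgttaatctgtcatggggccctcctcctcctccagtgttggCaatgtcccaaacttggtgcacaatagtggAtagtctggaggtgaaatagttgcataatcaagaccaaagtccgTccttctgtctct
Next are Cyp2b9 (chr7:25872584-25872833) and Cyp2b13 (chr7:25760670-25760919).
Cyp2b9: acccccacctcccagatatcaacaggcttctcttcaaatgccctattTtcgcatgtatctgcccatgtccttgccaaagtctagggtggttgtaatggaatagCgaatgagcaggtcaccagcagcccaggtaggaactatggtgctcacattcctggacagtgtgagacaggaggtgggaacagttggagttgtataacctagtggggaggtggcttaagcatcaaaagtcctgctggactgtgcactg
Cyp2b13: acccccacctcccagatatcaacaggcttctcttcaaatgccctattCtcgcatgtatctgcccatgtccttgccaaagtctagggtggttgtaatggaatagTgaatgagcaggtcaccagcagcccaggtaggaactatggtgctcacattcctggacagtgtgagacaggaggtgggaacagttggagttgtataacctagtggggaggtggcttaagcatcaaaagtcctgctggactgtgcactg
Last are Cyp2a12 (chr7:26728386-26728505) and Cyp2a22 (chr7:26638821-26638940, minus strand), shown over 120 bases, and Cyp2b10 (chr7:25596925-25597044), marked where it differs from Cyp2b9.
Cyp2a12: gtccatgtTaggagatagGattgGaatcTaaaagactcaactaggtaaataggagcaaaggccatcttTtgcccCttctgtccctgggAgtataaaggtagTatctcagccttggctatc
Cyp2a22: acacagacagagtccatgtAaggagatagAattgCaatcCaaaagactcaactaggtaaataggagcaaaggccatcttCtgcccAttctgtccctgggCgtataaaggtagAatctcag
Cyp2b10: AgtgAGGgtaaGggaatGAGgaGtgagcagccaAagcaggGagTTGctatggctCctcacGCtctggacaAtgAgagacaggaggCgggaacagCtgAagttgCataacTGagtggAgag

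In the 250 bases before the RefSeq start, Cyp2b9 and Cyp2b13 differed at 2 of 250 aligned bases and Cyp2a4 and Cyp2a5 at 4 of 249. Cyp2a12 and Cyp2a22 differed at 23 of 239 and Cyp2b10 and Cyp2b9 at 58 of 240. Gap bases, which these counts leave out, numbered 0, 2, 22 and 20 in the same order. These are reference sequences, and the Balb/c alleles were not read. The letters TATAAA, searched on both strands, were found in that window of all 4 Cyp2a genes and of none of the 3 Cyp2b genes, and in 12.3% of 32544 promoters. For Cyp2a4 and Cyp2a5 these letters are not within the printed bases, which stop 34 bases before the RefSeq start. The last 23 bases of the Cyp2a4 window and the last 34 of the Cyp2a5 window lie inside the GENCODE transcripts. TTGCNNAA, the core of a C/EBP site, was found in Cyp2a4, Cyp2a5, Cyp2b9, Cyp2b10 and Cyp2b13 (9.58% of promoters), and AGGTCA, the half-site of nuclear receptors, in Cyp2b9 and Cyp2b13 (14%). TTCNNNGAA, the STAT5 motif, was found in none of the 7 (7.04%).

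Total counts ran from 7044386 to 29425937 a mouse, so that a gene with 3 counts lay at 0.102 to 0.426 CPM (counts scaled to library size). The livers were checked by markers. The summed level of 6 hepatocyte genes was 170113 to 206607 CPM in control and 79996 to 135261 CPM in CCl4, and that of 10 pericentral genes was 8793 to 11575 CPM in control and 926 to 1908 CPM in CCl4. CCl4 + 4MU mouse 4 stood apart by bile duct genes, with Krt19 at 92.6 CPM against at most 6.14 CPM in the 26 other mice. Because whole liver was used, fewer cells of a type and less RNA per cell cannot be told apart.

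In livers without CCl4 the Cyp2a genes were the more abundant family. Per kilobase of mRNA, the control level was 554 ± 299 CPM (SD, n = 4) for Cyp2a4, 494 ± 16 for Cyp2a12, 425 ± 128 for Cyp2a5 and 129 ± 23.2 for Cyp2a22. The Cyp2b genes followed at 73.7 ± 17.8 for Cyp2b9, 55.3 ± 27.6 for Cyp2b10 and 39.5 ± 15.5 for Cyp2b13. Neighbours in this order differed by less than the larger of their SDs among the first 3 genes and among the 3 Cyp2b genes. The order of the first 3 depends on the length used, since with only the unique share of each mRNA Cyp2a5 came first, at 675 CPM per kilobase, ahead of Cyp2a4 at 646 and Cyp2a12 at 549.

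CCl4 took down 5 of the 7 genes in every treatment arm, and Cyp2a12 and Cyp2b10 were the others. Cyp2a5 had the largest change of the 7 in each arm. The count in CCl4 against control was 5 of 7 lower and 0 higher, where 34% of all tested genes were called (2537 higher and 2268 lower). The median log2 fold change was -2.26 over the 7 genes and -0.02 over all genes. In CCl4 + 4MU against 4MU, CCl4 + siLuc-LNP against siLuc-LNP and CCl4 + siHAS2-LNP against siHAS2-LNP the count was again 5 of 7 lower and 0 higher, beside 23.7%, 24.2% and 12.8% of all genes called. Calls are at an adjusted p under 0.05 by the quasi-likelihood test of edgeR.

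**Figure D1:**
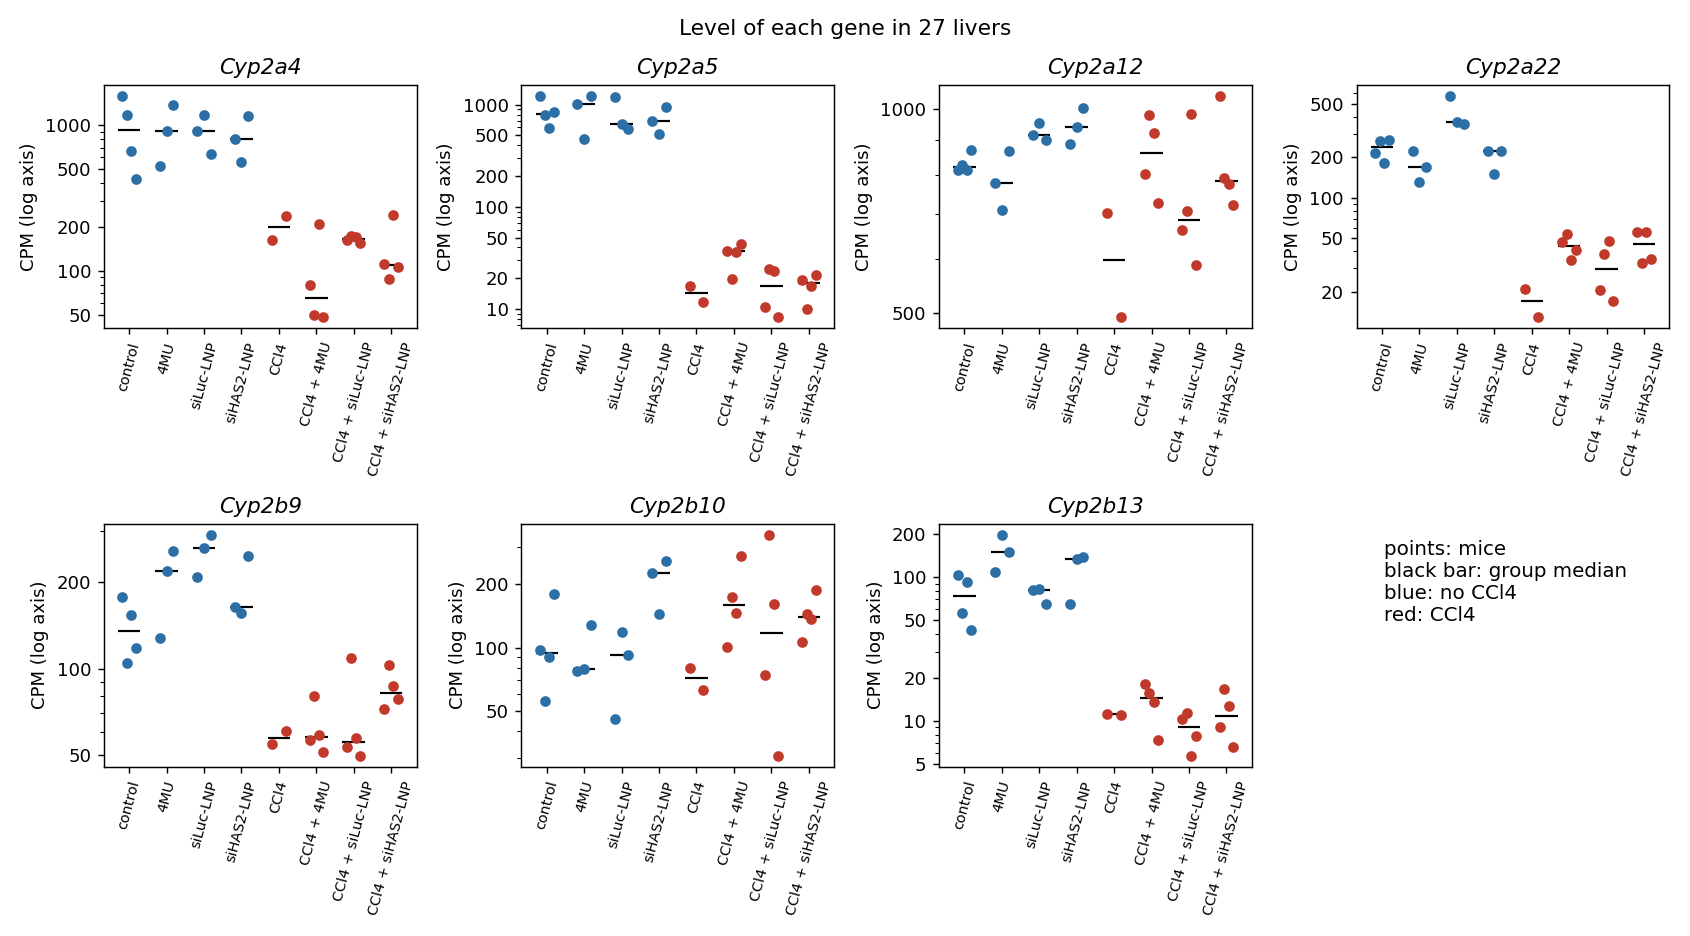
CPM (log axis) of each gene in each mouse, by group, with 1 point a mouse and a black bar at the group median. For Cyp2a4, Cyp2a5, Cyp2a22 and Cyp2b13 all 14 CCl4 mice (red) lie below all 13 others (blue), whereas the colours overlap for Cyp2a12 and Cyp2b10.

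Cyp2a5 was at 1219, 793, 594 and 845 CPM in the 4 control mice and at 16.6 and 11.8 CPM in the 2 CCl4 mice. The groups were far apart, and the gene was 60.9-fold lower with CCl4 (log2 fold change -5.93, SE 0.6, adjusted p = 5.5e-08). The fall was 26.4-fold in the 4MU arm, 48.5-fold in the siLuc-LNP arm and 42.4-fold in the siHAS2-LNP arm. Over all arms, the lowest of the 13 mice without CCl4 had 10.6 times the level of the highest of the 14 mice with it.

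Cyp2a4, the near-identical neighbour and a steroid hydroxylase, fell less. It was at 1587, 1172, 668 and 424 CPM in control and at 163 and 238 CPM in CCl4. All CCl4 mice were below all controls, but the controls themselves spread widely. The log2 fold change was -2.26 (SE 0.589, adjusted p = 0.00454), and without CCl4 mouse 1 it was -2.00 with an adjusted p of 0.0592. In the other arms Cyp2a4 fell 9.63-fold with 4MU, 5.48-fold with siLuc-LNP and 6.12-fold with siHAS2-LNP. Summing the counts of Cyp2a4 and Cyp2a5 gave a log2 fold change of -3.09 (SE 0.501, adjusted p = 4.39e-05) for CCl4 against control. The sum leaves out reads that fit both genes, since these were not counted, so it still depends on the unique share of each gene.

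Cyp2a22 was at 215, 264, 181 and 268 CPM in control and at 20.9 and 13 CPM in CCl4, a 13.7-fold fall (log2 fold change -3.77, SE 0.414, adjusted p = 1.85e-07). It fell 14-fold in the siLuc-LNP arm, 3.98-fold in the 4MU arm and 4.42-fold in the siHAS2-LNP arm. Its close copy Cyp2a12 did not pass the test in any arm. Cyp2a12 was at 814, 827, 814 and 870 CPM in control and at 703 and 493 CPM in CCl4, which did not overlap, but the log2 fold change of -0.47 (95% interval -0.88 to -0.07) missed the threshold at an adjusted p of 0.065. It passed without CCl4 mouse 1 (-0.74, adjusted p = 0.0281) and in DESeq2 (-0.46, adjusted p = 0.0422). In the other arms the log2 fold changes of Cyp2a12 were 0.13 (95% interval -0.22 to 0.48) with 4MU, -0.33 (-0.68 to 0.02) with siLuc-LNP and -0.18 (-0.53 to 0.17) with siHAS2-LNP. The siLuc-LNP value passed the threshold without CCl4 + siLuc-LNP mouse 3 (-0.48, adjusted p = 0.0301).

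Among the Cyp2b genes, Cyp2b13 fell the most. It was at 104, 56.3, 92.6 and 43.2 CPM in control and at 11.2 and 10.9 CPM in CCl4, 6.69-fold lower (log2 fold change -2.74, SE 0.437, adjusted p = 3.58e-05). The fall was 11.2-fold with 4MU, 8.66-fold with siLuc-LNP and 9.86-fold with siHAS2-LNP. Cyp2b9 was at 178, 105, 153 and 118 CPM in control and at 54.7 and 60.5 CPM in CCl4, 2.4-fold lower (log2 fold change -1.26, SE 0.314, adjusted p = 0.00322). It fell 3.26-fold, 3.77-fold and 2.21-fold in the 4MU, siLuc-LNP and siHAS2-LNP arms. Both of these female-biased genes were thus lower in each arm.

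Cyp2b10 was not called in any arm with the low-count filter, and it had the widest scatter of the 7 among the CCl4 mice. It was at 97.3, 55.5, 90.7 and 180 CPM in control and at 80.4 and 63.2 CPM in CCl4, which overlapped (log2 fold change -0.56, 95% interval -1.78 to 0.66, adjusted p = 0.488). In CCl4 + siLuc-LNP the 4 mice were at 74.2, 345, 162 and 30.6 CPM, an 11.3-fold range that holds the lowest and the highest of all 14 CCl4 mice. The log2 fold change was 0.87 (-0.20 to 1.94) in the 4MU arm, 0.84 (-0.24 to 1.91) in the siLuc-LNP arm and -0.55 (-1.59 to 0.50) in the siHAS2-LNP arm. Without the low-count filter Cyp2b10 was called higher with CCl4 in the 4MU arm (0.88, adjusted p = 0.0144) and the siLuc-LNP arm (0.85, adjusted p = 0.0207).

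**Figure D2:**
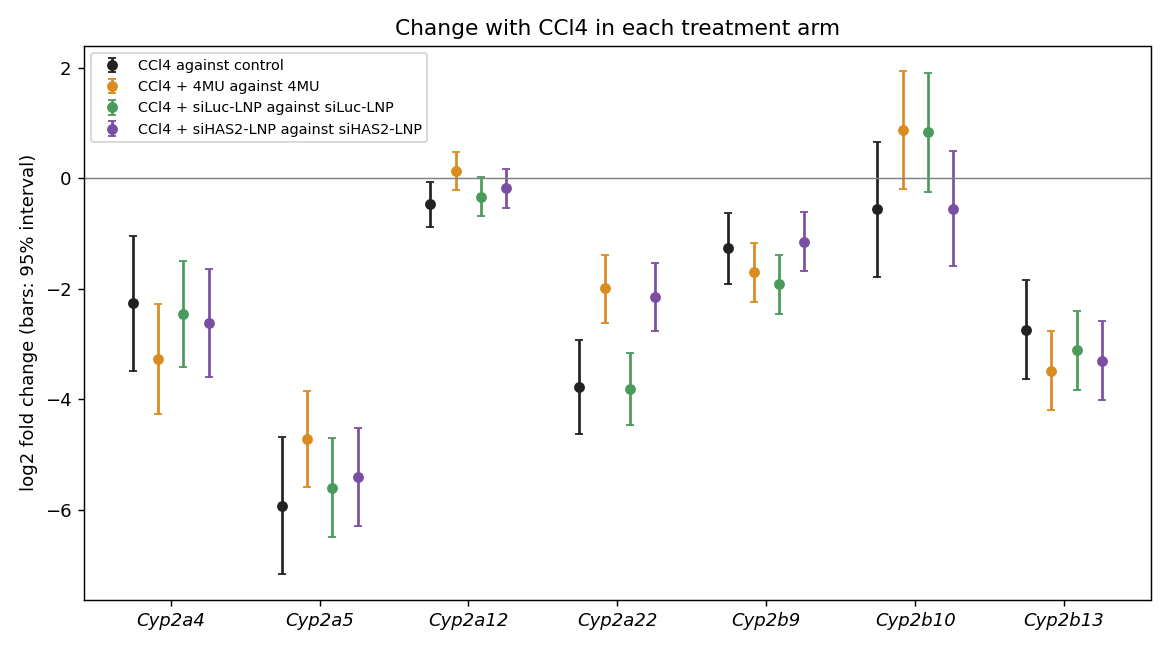
Log2 fold change of each gene with CCl4 in the 4 treatment arms, with 95% intervals from edgeR. Cyp2a5 lies lowest, between -5.93 and -4.72, and the intervals of Cyp2b10 cross 0 in all arms.

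The unequal changes of close copies were compared within each mouse, where depth and scaling cancel, as the log2 ratio of their counts (pairs chosen after their values were seen). For Cyp2a22 over Cyp2a12 the ratio was -2.64 to -0.68 in the 13 mice without CCl4 and -5.24 to -3.80 in the 14 with it, which did not overlap. The mean difference was 6.27-fold (adjusted p = 2.67e-05 over 4 ratios, 2-sided permutation test). Cyp2a5 over Cyp2a4 was 6.17-fold lower (adjusted p = 4e-05), and 13 of 14 CCl4 mice lay below all others. By arm that ratio averaged -3.81 ± 0.74 (SD, n = 2) in CCl4, -3.46 ± 0.73 (n = 4) in CCl4 + siLuc-LNP, -2.95 ± 0.69 (n = 4) in CCl4 + siHAS2-LNP and -1.28 ± 0.98 (n = 4) in CCl4 + 4MU. Cyp2b13 over Cyp2b9 was 3.24-fold lower and Cyp2b9 over Cyp2b10 3.06-fold lower (adjusted p = 2.67e-05 for both), with 12 and 8 of the 14 CCl4 mice below all others. An unadjusted p of 2e-05, reached by each ratio but that of Cyp2a5 to Cyp2a4, is the smallest that the 100000 permutations can give. The permutations moved mice freely across treatment arms, and the adjustment covers only the 4 chosen ratios. Because the pairs were chosen for their unequal changes, these p-values only describe them.

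**Figure D3:**
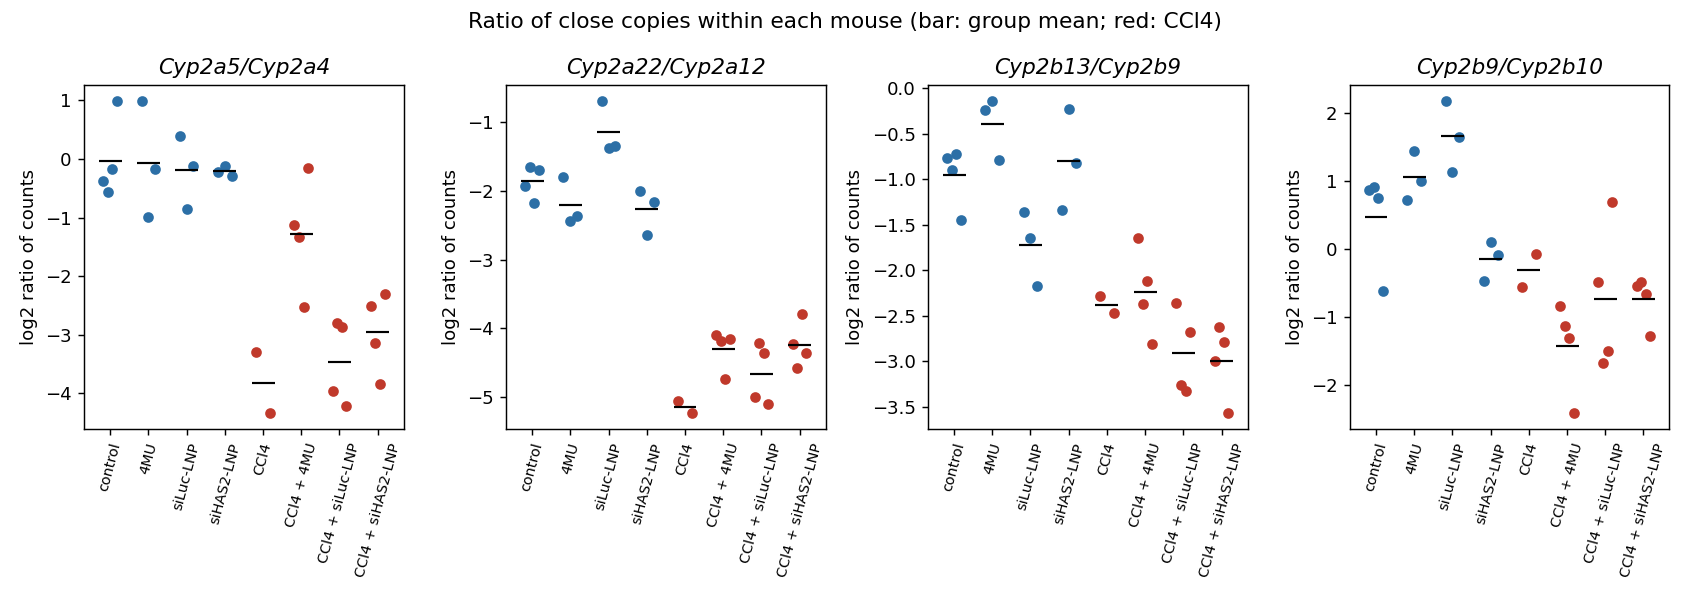
Log2 ratio of the counts of close copies in each mouse, by group, with a bar at the group mean. For Cyp2a22 over Cyp2a12 the CCl4 mice (red, -5.24 to -3.80) lie below all others (-2.64 to -0.68).

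The make-up of each family shifted accordingly. Of the summed Cyp2a level per kilobase, Cyp2a12 held 32.3% ± 7.81 (SD, n = 4) in control and 72.4% ± 8.81 (n = 2) in CCl4, while Cyp2a5 went from 26.5% ± 4.12 to 1.42% ± 0.163. Of the summed Cyp2b level, Cyp2b10 held 32.3% ± 13.4 in control and 50.4% ± 5.66 in CCl4, and Cyp2b13 went from 23.6% ± 7.21 to 7.98% ± 0.302. These shares are descriptions and were not tested.

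Of the 7 genes, Cyp2a22 alone was called by edgeR when treated CCl4 mice were set against CCl4. It was at 46.6, 53.8, 34.3 and 40.6 CPM in CCl4 + 4MU and at 55.7, 32.9, 55.8 and 35.1 CPM in CCl4 + siHAS2-LNP, all above the 20.9 and 13 CPM of CCl4 and all below the lowest mouse without CCl4, at 131 CPM. The log2 fold change against CCl4 was 1.37 (SE 0.362, adjusted p = 0.0119) with 4MU and 1.41 (SE 0.363, adjusted p = 0.0125) with siHAS2-LNP. These comparisons share the 2 CCl4 mice. Without CCl4 mouse 2 they were 1.03 (adjusted p = 0.227) and 1.07 (adjusted p = 0.249). Leaving out CCl4 + 4MU mouse 4, the one with high Krt19, left the 4MU call in place. The counts were 1 of 7 in each, where 18.3% of all genes were called with 4MU and 14.4% with siHAS2-LNP.

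With the particle control, CCl4 + siLuc-LNP against CCl4, 0 of 7 genes were called by edgeR, limma-voom and DESeq2, and 0.248% of all genes. At an unadjusted p under 0.05 the count was 1, Cyp2a22, at 20.7, 37.9, 47.9 and 17.1 CPM (log2 fold change 0.86, 95% interval 0.13 to 1.59). Over all genes it was 2001 of 14114, a share close to that of the 7 genes. CCl4 + siHAS2-LNP against CCl4 + siLuc-LNP gave 0 of 7 by all 3 tools, with 1.09% of all genes called by edgeR. At an unadjusted p under 0.05 it gave 0 of 7, beside 2349 of all genes. For Cyp2a22 that difference was 0.55 (95% interval -0.03 to 1.12), and the 4 mice of each group overlapped.

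Cyp2a5 was at 36.9, 19.8, 36.4 and 43.4 CPM in CCl4 + 4MU, all above the 2 CCl4 mice, with a log2 fold change of 1.27 (95% interval 0.31 to 2.23) and an adjusted p of 0.0576. It passed in DESeq2 (1.24, adjusted p = 0.0239) and without CCl4 + 4MU mouse 2 (1.43, adjusted p = 0.0413). Cyp2a12 had a log2 fold change of 0.52 (adjusted p = 0.0669) in the same comparison, and passed in DESeq2 (0.49, adjusted p = 0.0438) and without CCl4 mouse 1 (0.78, adjusted p = 0.0334). Cyp2a4 had the opposite sign there, with 80.5, 49.9, 210 and 48.2 CPM in CCl4 + 4MU and an overlap with CCl4 through mouse 3 (log2 fold change -1.04, 95% interval -2.09 to 0.01, adjusted p = 0.15), and it passed without that mouse (-1.75, adjusted p = 0.0118).

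Cyp2b10 was at 101, 175, 146 and 273 CPM in CCl4 + 4MU and at 106, 144, 137 and 189 CPM in CCl4 + siHAS2-LNP, all above the 80.4 and 63.2 CPM of CCl4. The log2 fold change against CCl4 was 1.27 with 4MU (95% interval 0.01 to 2.54, adjusted p = 0.145) and 1.00 with siHAS2-LNP (-0.25 to 2.25, adjusted p = 0.277). It was 1.09 with siLuc-LNP (-0.16 to 2.34, adjusted p = 0.433), where the groups overlapped. All 3 passed without the low-count filter (adjusted p = 0.00229, 0.0328 and 0.0441 for 4MU, siHAS2-LNP and siLuc-LNP), and the siHAS2-LNP value passed in a fit of only the compared groups (0.99, adjusted p = 0.0249).

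Against CCl4 + siHAS2-LNP, CCl4 + 4MU gave 0 of 7 by edgeR and DESeq2, with 1.22% of all genes called by edgeR. By limma-voom it gave 1 of 7, beside 1024 of all genes. The 1 gene at an unadjusted p under 0.05 by edgeR was Cyp2a5, at 1.02 (adjusted p = 0.14). Of all 14114 genes, 2629 had such an unadjusted p.

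The change of Cyp2a22 with CCl4 was smaller in the 4MU arm than in the untreated arm, by 1.78 on the log2 scale (95% interval 0.82 to 2.74, adjusted p = 0.0321), and this interaction was the 1 call among the 7, beside 5.67% of all genes. It lost its call without any of control mouse 2 (1.68, adjusted p = 0.0516), 4MU mouse 2 (1.61, 0.0745), 4MU mouse 3 (1.76, 0.0622), CCl4 mouse 2 (1.45, 0.213) or CCl4 + 4MU mice 1 (1.75, 0.0558), 2 (1.64, 0.0517) or 4 (1.82, 0.0523). The interaction of siHAS2-LNP with CCl4, relative to siLuc-LNP, was 1.66 for Cyp2a22 (95% interval 0.79 to 2.53, adjusted p = 0.158). It gave 0 of 7 by edgeR, with 0.0354% of all genes called, and 1 by DESeq2, with 67 of all genes called. At an unadjusted p under 0.05 in edgeR the count was 2 of 7, beside 1612 of all 14114 genes. Without CCl4 + siLuc-LNP mouse 3 the Cyp2a22 value was 1.92 (adjusted p = 0.0445).

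In livers without CCl4 the treatments gave no call among the 7 by edgeR or DESeq2. In 4MU against control, where 0.00709% of all genes were called, 2 of 7 had an unadjusted p under 0.05. Of all 14114 tested genes, 966 had such a p. Cyp2b13 was at 108, 198 and 149 CPM with 4MU, all above the highest control at 104 CPM (log2 fold change 1.03, adjusted p = 0.39). The other was Cyp2b9, at 0.54 (adjusted p = 0.726). In siLuc-LNP against control, with 0.213% of all genes called, the 2 genes were Cyp2b9 (209, 262 and 292 CPM, log2 fold change 0.88, adjusted p = 0.29), which limma-voom called, and Cyp2a22 (571, 367 and 356 CPM, 0.90, adjusted p = 0.404). All siLuc-LNP mice were above all controls for both genes. Over all genes, 960 had an unadjusted p under 0.05 in this comparison. In siHAS2-LNP against siLuc-LNP, with 0.0425% of all genes called, the 2 genes were Cyp2a22 (222, 151 and 224 CPM, -1.12, adjusted p = 0.221) and Cyp2b10 (226, 145 and 260 CPM, 1.29, adjusted p = 0.478). Over all genes the number at an unadjusted p under 0.05 was 1262 there.

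Other genes of the pathways were read from lists chosen with earlier results of these data known. CAR mRNA (Nr1i3) was at 50.5 ± 12.4 CPM (SD, n = 4) in control and 10.2 ± 2.98 CPM (n = 2) in CCl4 (log2 fold change -2.31, SE 0.43, adjusted p = 0.000217). It was higher than in CCl4 with 4MU (1.86, adjusted p = 0.00459) and with siHAS2-LNP (1.50, adjusted p = 0.0181). With siLuc-LNP the difference from CCl4 was not called (0.71, adjusted p = 0.443). In the treated arms, Nr1i3 was called lower with CCl4 in siLuc-LNP (-1.88, adjusted p = 0.000227). It was not called in 4MU (-0.39, adjusted p = 0.419) or siHAS2-LNP (-0.64, adjusted p = 0.22). Of 15 xenobiotic receptors and partners, 4 fell in CCl4 against control (Nr1i3, Ahr, Cebpa and Foxa2) and 1 rose (Nfe2l2, the regulator of the oxidant response), a share close to the 34% called among all genes. The directions were not the same in the other arms, where 0 fell and 2 rose with 4MU, 2 fell and 2 rose with siLuc-LNP, and 0 fell and 1 rose with siHAS2-LNP. Ahr, the dioxin receptor, had a log2 fold change of -0.75 in CCl4 against control (adjusted p = 0.00479) but was higher with CCl4 in the 4MU arm (0.55, adjusted p = 0.0191) and the siLuc-LNP arm (0.47, adjusted p = 0.0419). Of 20 other target genes of CAR and PXR, 10 fell and 3 rose in CCl4 against control, with a median log2 fold change of -0.87. The other arms were more mixed: 3 fell and 3 rose with 4MU (median -0.27). With siLuc-LNP 5 fell and 4 rose (median -0.13), and with siHAS2-LNP 5 fell and 2 rose (median -0.30). Of all genes, 23.7%, 24.2% and 12.8% were called in these 3 arms. In CCl4 against control the log2 fold change was -1.90 for Cyp2c50, -2.33 for Cyp2c54 and 4.01 for Gsta1, a glutathione transferase. Gsta1 was near the floor of 3 counts in control (0.272 ± 0.105 CPM, n = 4) and at 4.6 ± 0.794 CPM (n = 2) in CCl4. It was called higher in the siLuc-LNP arm (4.56, adjusted p = 0.0018). It was not called in the 4MU arm (0.35, adjusted p = 0.767) or the siHAS2-LNP arm (2.17, adjusted p = 0.0975).

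Of 18 other female-biased liver genes, 15 fell and 0 rose in CCl4 against control (median -3.48, against -0.02 over all genes). The sulfotransferase Sult2a1 went from 862 ± 118 CPM (n = 4) to 102 ± 103 CPM (n = 2), and Cux2, a female-specific repressor, from 23.5 ± 19.1 to 1.24 ± 0.855 CPM. Of 8 male-biased genes tested, 2 fell and 0 rose. Of 11 genes of growth hormone signalling, 4 fell (among them Ghr, the receptor, at -1.59, and Igf1, its main target, at -1.25) and 0 rose. The counts for the male-biased and growth hormone genes are near or below the 34% of all genes called in this comparison. Of 10 pericentral hepatocyte genes, 9 fell (Glul at -3.73, Cyp2e1 at -4.17), and of 8 periportal genes, 2, which is below that share. Hepatocyte markers fell less, with 3 of 6 lower and Alb at -0.90. All 5 proliferation genes rose (Mki67 at 5.28), as did 6 of 8 stellate cell genes (Col1a1 at 5.49). The part of these cell type shifts in the changes of the Cyp2 genes was not tested. Of the 6 other Cyp2 genes of the cluster, 3 could be tested and Cyp2g1 fell by 2.90.

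Within the 14 CCl4 mice, Cyp2a22 followed CAR mRNA most closely of the 7 genes (relation chosen after the values were seen, on log2 CPM). Pearson's r was 0.9 (permutation p = 2e-05, adjusted p = 0.00028 over 14 relations) and Spearman's rho 0.815 (permutation p = 0.00071). Without the 2 mice farthest from the median of Nr1i3, r was 0.817, and after the group means were removed it was 0.828. The arms differ in both genes, and the permutations moved mice freely across arms, so arm and CAR level cannot be fully told apart. Cyp2a4 had the opposite sign, with an r of -0.606 (permutation p = 0.0221, adjusted p = 0.062) and a rho of -0.534 (permutation p = 0.0517), and r was -0.564 without the 2 mice. With group means removed its r shrank to -0.269. Cyp2a5 had an r of 0.682 (permutation p = 0.00801, adjusted p = 0.0374) and a rho of 0.662 (permutation p = 0.012), and r was 0.512 without them. For Cyp2b9 r was 0.217 (permutation p = 0.454) and rho 0.121 (permutation p = 0.681), and for Cyp2b13 r was 0.128 (permutation p = 0.66) and rho 0.152 (permutation p = 0.605). For Cyp2a12 r was 0.756 (permutation p = 0.00168, adjusted p = 0.0118), rho was 0.798 (permutation p = 0.00101) and r without the 2 mice was 0.545. Cyp2b10, the classic CAR target, had an r of 0.64 (permutation p = 0.0129, adjusted p = 0.0452) and a rho of 0.503 (permutation p = 0.0705). Its r was 0.322 without the 2 mice, so that this relation depends in part on them. With group means removed r was 0.52 for Cyp2b10, 0.59 for Cyp2a12, 0.566 for Cyp2a5, 0.0967 for Cyp2b9 and -0.196 for Cyp2b13. In the 13 mice without CCl4 the r of Cyp2a22 was 0.583 (permutation p = 0.036, adjusted p = 0.084) with a rho of 0.582 (permutation p = 0.0393), and r was 0.536 without the 2 farthest mice. With group means removed it was 0.378. The other genes had lower r there (adjusted permutation p from 0.47 to 0.991). These were 0.336 for Cyp2a5, 0.153 for Cyp2b9, 0.104 for Cyp2a12, -0.00363 for Cyp2a4, -0.26 for Cyp2b10 and -0.33 for Cyp2b13.

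**Figure D4:**
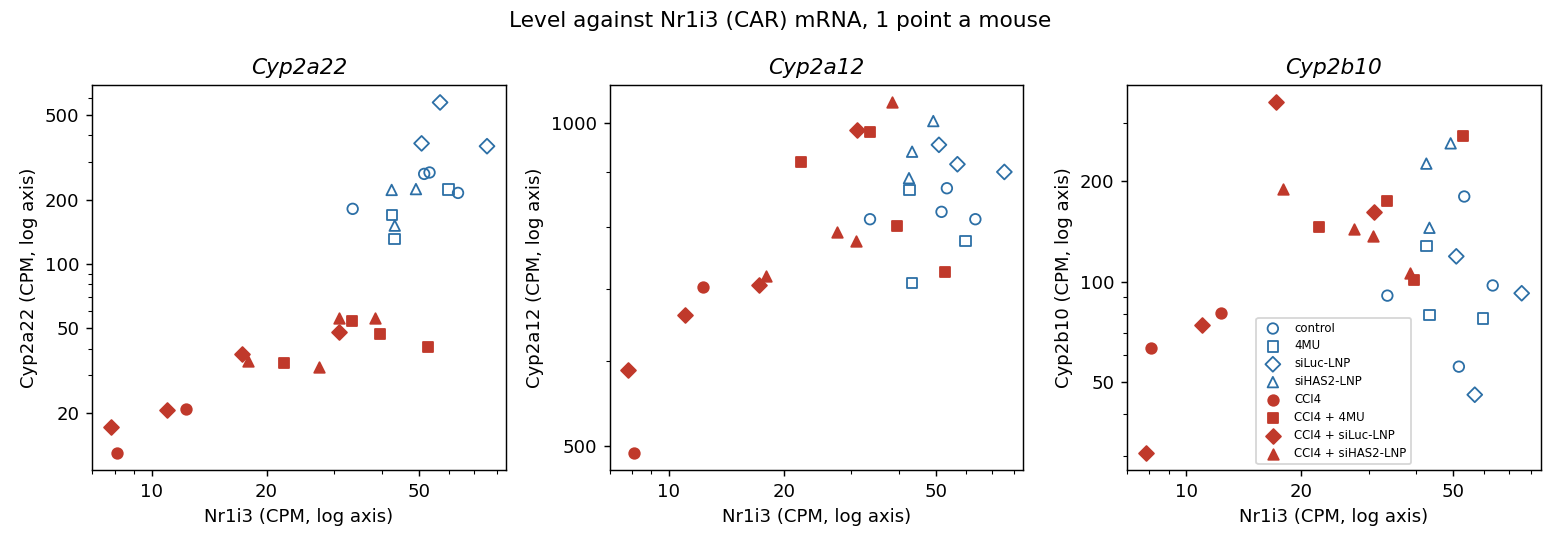
CPM of Cyp2a22, Cyp2a12 and Cyp2b10 against CPM of Nr1i3 (both axes log), 1 point a mouse, with CCl4 mice filled red and others open blue. Cyp2a22 rises with Nr1i3 among the CCl4 mice (r = 0.9), all of which lie below the mice without CCl4.

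The genes most like each member over all 27 mice are given by Pearson's r of log2 CPM, as a description, since the CCl4 groups set most of it. For Cyp2a5 these were Lhpp (0.982, and 0.595 with group means removed), Slc1a2 (0.973 and 0.544) and Oat (0.972 and 0.0877). All are on the list of pericentral genes, but that list was chosen with earlier results of these data known. For Cyp2a22, with both values given in the same way, they were Pcp4l1 (0.957 and 0.622), Cyp2e1 (0.956 and 0.791) and Cyp2g1 (0.954 and 0.679). For Cyp2b13 they were Sult3a1 (0.965 and 0.673), Cyp7b1 (0.958 and 0.433) and Glul (0.947 and 0.356). Cyp2a4 was most like Cyp3a44 (0.918 and 0.404), Ces1f (0.913 and 0.388) and Cyp2c69 (0.904 and 0.29). Cyp2b9 was most like Aox3 (0.9 and 0.632), Pcp4l1 (0.897 and 0.0687) and Nxpe2 (0.89 and 0.339). The 2 genes without a call stood elsewhere. Cyp2a12 was most like the sterol transporter Abcg5 (0.886), Cyp4f15 (0.866) and Pla1a (0.86), and with group means removed r to Abcg5 was 0.909. Cyp2b10 was most like Cth (0.825), Nfs1 (0.802) and Hfe (0.802), with an r of 0.82 to Cth once group means were removed.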

How the data were processed

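The authors made the deposited counts from poly(A) RNA of liver homogenate (directional library, paired-end reads): trimming with Trimmomatic (0.39), alignment with HISAT2 to GRCm39 (Ensembl annotation) and featureCounts without multi-mapping reads. The strand setting is not given in the sources used here. Of 55414 gene identifiers, 54749 had a symbol in GENCODE vM39. Here, genes averaging 10 or more counts a mouse entered the quasi-likelihood test of edgeR (4.0.16, R 4.3.3; TMM scaling, 1 fit over 8 groups, Benjamini-Hochberg adjustment over 14114 genes), which was tested on simulated data. Intervals are 95%. Levels are TMM-scaled CPM, and per kilobase they use the canonical mRNA. Ratios used counts + 0.5. DESeq2 (1.42.0), limma-voom (3.58.1), other filters and scaling, and leaving out each mouse were alternatives. The 7 genes and all lists were chosen with earlier results of these data known. Named genes were the 7, list genes past the threshold and the 3 genes most like each of the 7. Mice are the replicates. Totals of 7044386 to 29425937 counts set the precision, and floors cover counting error only.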

Additional observations from a re-analysis of the deposited data

Results flagged for a closer look

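Of 28 sets of 4 mice (7 genes in 4 groups), 2 held a mouse far from the others by Dixon's criterion, which chance alone meets in about 1 in 20 sets. Cyp2a4 was at 240 CPM in CCl4 + siHAS2-LNP mouse 3, against 88 to 111 CPM in the other 3 mice. Cyp2b9 was at 109 CPM in CCl4 + siLuc-LNP mouse 2, against 49.8 to 57.5 CPM, and that mouse also had the highest Cyp2b10 of all CCl4 mice, at 345 CPM. The change of Cyp2a22 with CCl4 differed between the 4MU and the untreated arm by 1.78 on the log2 scale, by the interaction term of the edgeR fit (adjusted p = 0.0321).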

How the results depend on the processing

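The 5 calls among the 7 genes in CCl4 against control became 6 in DESeq2, where calls over all genes went from 4805 to 5074. The same count held between 5 and 6 in the other 3 arms under the alternatives that keep all mice. The 6th call in the 4MU and siLuc-LNP arms was Cyp2b10, which was higher with CCl4 (0.88 and 0.85, without the low-count filter). In these fits 3422 and 3485 of all genes were called. Without the low-count filter the count rose from 1 to 4 for CCl4 + 4MU against CCl4, from 1 to 2 for CCl4 + siHAS2-LNP against CCl4, from 0 to 1 for CCl4 + siLuc-LNP against CCl4, CCl4 + 4MU against CCl4 + siHAS2-LNP and 4MU against control, from 0 to 2 for siLuc-LNP against control, siHAS2-LNP against siLuc-LNP and the siHAS2-LNP interaction, and from 1 to 3 for the 4MU interaction. With more genes tested, calls over all genes rose too. In the same order they went from 2580 to 2636, 2038 to 2094, 35 to 427, 172 to 975 and 1 to 136. The rest went from 30 to 143, 6 to 158, 5 to 304 and 800 to 1386. The cause was not tested. DESeq2 gave 3 for CCl4 + 4MU against CCl4 and 1 for the siHAS2-LNP interaction, where it called 3025 and 67 of all genes. For siLuc-LNP against control and for CCl4 + 4MU against CCl4 + siHAS2-LNP, limma-voom gave 1 each, beside 84 and 1024 of all genes. With only the compared groups, CCl4 + 4MU and CCl4 + siHAS2-LNP against CCl4 gave 2 each, beside 2037 and 1631 of all genes. Leaving out 1 mouse gave 0 to 2 calls in these last comparisons, 0 to 1 for the 4MU interaction and 0 to 1 for the siHAS2-LNP interaction. Cyp2b10 turned from -0.56 to 0.19 and 0.24 when all 14 CCl4 mice were set against the 13 others, with and without a treatment term. Single-gene changes were followed for 52 combinations of gene and comparison, those called in some fit or with an unadjusted p under 0.05, plus Cyp2a12 and Cyp2b10 with CCl4. Of their 837 recomputed values, 793 kept direction and call, 32 gained a call, 10 lost it and 2 reversed. Of the 46 other combinations, none called in any fit, 23 changed sign under at least 1 alternative. The replicate block left the count at 5 in CCl4 against control and changed no count. Same-numbered mice did not in general deviate together (median r -0.0159 over 83 pairs, 17 of them over 0.1, highest 0.247). The labels give no batch, and whether some mice shared one was not tested. All genes called under the block were 4520 of 14114 in CCl4 against control, and 12 against 154 without it for CCl4 + siHAS2-LNP against CCl4 + siLuc-LNP. The CCl4 group holds 2 mice, and nothing here separates the copies beyond their unique reads.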
